A study of Mus musculus with 2 samples.

Results

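The genes described here are 42 cell cycle genes, matched by symbol among the 32285 genes of the deposited tables, and read in glioma cells and in each immune cell type of the mouse optic nerve. They comprise 23 mitosis genes, 18 S-phase genes and Stmn1, which encodes a microtubule-destabilising protein. The samples were 2 droplet single-cell RNA libraries of optic nerve from Nf1OPG mice, each made from a pool of 10 mice aged 12 weeks. These mice carry a mutant Nf1 allele and a floxed Nf1 allele that is deleted by Cre from a GFAP promoter, on a C57BL/6 background, and they form low-grade gliomas of the optic nerve and chiasm. The libraries are called C-ON, whose label also reads control, and FMC_new, as their labels name them. By their labels both carry the same genotype, age and tissue, so they were treated as 2 libraries of 1 group. No test between groups was possible and no p-value is given. Their cell content differed, as given below. Pooling removes the individual mouse from the data, GFAP-driven Cre acts in neural progenitors and their progeny, and tumour cells cannot be told apart from normal oligodendrocyte progenitors by their markers.

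A dividing cell copies its DNA in S phase and separates the copies in mitosis. S-phase genes encode the helicase that opens the DNA, enzymes that make nucleotides and the clamp that holds the polymerase, and many of them are activated by E2F factors. Mitosis genes encode cyclins, kinases, motors and kinetochore proteins that are made late in the cycle and removed as the cell divides. D-type cyclins and their kinases act before both, where growth signals, including those that pass through Ras, set whether a cell enters the cycle.

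The promoters of the members are shown first because the mitosis and S-phase genes carried different short motifs. A promoter was held for 35 of the 42 members in the RefSeq annotation of mouse build GRCm38.p6, as 250 bases before and 50 bases after the start. The motif TTTGAA, the core of the cell cycle homology region, was present on either strand in 15 of the 20 promoters of mitosis genes (75%), in 1 of the 17 promoters of 15 S-phase genes (5.88%), of which Mcm7 and Uhrf1 have 2 each, and in 17.9% of all 32851 promoters. CCAAT was present in 85% of the mitosis and 70.6% of the S-phase promoters, against 37.4% of all. The E2F-type motifs TTTGGCGC and TTTCCCGC were, counted as 1 set, present in 7 of the 17 S-phase promoters (41.2%), in 0 of the 20 mitosis promoters and in 1.56% of all. A match is a description of letters and not of a bound site. The 150 bases before the start are given below for 3 mitosis genes with TTTGAA and for 3 S-phase genes with an E2F-type motif. The mitosis genes are Cdk1 (chr10:69352913-69353062, minus strand), the kinase that drives entry into mitosis, Cdc20 (chr4:118437344-118437493, minus strand), an activator of the anaphase-promoting complex, and Mki67 (chr7:135716380-135716529, minus strand), which coats mitotic chromosomes. The S-phase genes are Mcm6 (chr1:128359706-128359855, minus strand), a helicase subunit, Hells (chr19:38930840-38930989, plus strand), a chromatin remodeller, and Cdc6 (chr11:98908001-98908150, plus strand), which loads the helicase. Capitals mark any of these 4 motifs, read on either strand. The starts are those of RefSeq. In a second annotation, used here for gene overlaps, Cdc6 begins at base 98907801, so its printed bases lie inside that gene model. Those of Hells, Cdk1 and Cdc20 lie partly inside theirs.
Cdk1: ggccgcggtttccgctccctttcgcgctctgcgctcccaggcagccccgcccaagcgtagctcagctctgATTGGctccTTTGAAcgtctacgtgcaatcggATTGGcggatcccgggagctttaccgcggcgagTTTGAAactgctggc
Cdc20: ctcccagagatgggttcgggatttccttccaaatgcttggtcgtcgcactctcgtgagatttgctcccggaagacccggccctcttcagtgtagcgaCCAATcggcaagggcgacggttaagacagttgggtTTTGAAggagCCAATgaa
Mki67: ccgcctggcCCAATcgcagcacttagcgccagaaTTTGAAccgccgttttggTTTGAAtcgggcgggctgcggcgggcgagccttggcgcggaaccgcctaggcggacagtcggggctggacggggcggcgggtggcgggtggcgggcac
Mcm6: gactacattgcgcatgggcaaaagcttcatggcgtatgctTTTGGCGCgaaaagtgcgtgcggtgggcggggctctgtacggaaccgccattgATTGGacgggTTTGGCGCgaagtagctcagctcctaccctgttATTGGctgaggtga
Hells: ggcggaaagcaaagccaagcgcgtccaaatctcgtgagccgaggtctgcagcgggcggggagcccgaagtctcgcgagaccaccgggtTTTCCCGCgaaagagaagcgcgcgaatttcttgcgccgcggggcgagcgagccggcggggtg
Cdc6: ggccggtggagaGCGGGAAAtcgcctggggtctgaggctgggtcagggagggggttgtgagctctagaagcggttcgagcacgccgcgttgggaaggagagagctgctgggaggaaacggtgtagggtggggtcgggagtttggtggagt

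The C-ON library held 85101211 UMIs (unique molecules) in 10845 barcodes and the FMC_new library 129113325 UMIs in 21341 barcodes. Filters kept 8834 and 16818 cells, with a median of 6810.5 and 4676 UMIs per cell, and 188 barcodes were shared between the kept cells of the libraries. Oligodendrocyte-like cells were 60.6% of what was kept in C-ON and 12.4% in FMC_new, and leukocytes 27.3% and 53.8%. Pituitary endocrine-like cells were also kept, nearly all of them from FMC_new. Outside that class, the pituitary hormone gene Gh had a UMI in 99.8% of cells of FMC_new and in 0.0113% of C-ON. For Prl, another such gene, this was 94.5% and 0%. The effect of this pituitary content on the shares and on the gaps between libraries was not tested. Clusters were built without cell cycle genes and named from marker genes, and the glioma-like class carried its markers: Pdgfra, the receptor that marks oligodendrocyte progenitors, had a UMI in 77.0% of its cells against 1.05% of all others, and Neu4 in 67.3% against 0.433%. In the T cell-like class, Cd3e, a part of the T cell receptor complex, had a UMI in 90.1% of cells against 7.93% of others.

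A cell was called as carrying mitosis genes where at least 3 of the 23 had a UMI. This held for 82 of 8834 cells in C-ON (0.928%, exact binomial 95% interval 0.739 to 1.15) and for 541 of 16818 in FMC_new (3.22%, 2.96 to 3.49). These intervals, like all others here, cover counting error only, and the gap between the libraries exceeded them. Of the 623 called cells, 137 sat just inside the threshold at exactly 3 genes, 310 (49.8%) had at least 8, and 587 further cells sat just outside at 2. No mitosis gene was detected in 20675 cells. In oligodendrocyte-like cells, which are postmitotic and served as the background class, 1 of 5349 cells in C-ON (0.0187%) and 2 of 2083 in FMC_new (0.096%) were called.

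Glioma-like cells carried mitosis genes in 5 of 215 cells in C-ON (2.33%, 0.759 to 5.34) and in 61 of 1400 in FMC_new (4.36%, 3.35 to 5.56). T cell-like cells did so in 36 of 1001 cells in C-ON (3.6%, 2.53 to 4.94) and in 210 of 3473 in FMC_new (6.05%, 5.28 to 6.89). Both classes lay far above the oligodendrocyte-like background in each library. The glioma-like share was the lower in each library, with intervals that overlapped in both. After every cell was thinned to 2000 UMIs, which leaves out 14 and 246 glioma-like and 211 and 729 T cell-like cells that were shallower, the shares were 1.49% and 3.38% in glioma-like cells and 3.16% and 5.14% in T cell-like cells. At that depth 0 of 5248 and 0 of 1971 oligodendrocyte-like cells were called, which allows shares of up to 0.0572% and 0.152%.

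Among the other immune classes, B cell-like, neutrophil-like and type 1 and type 2 dendritic-like cells had the highest shares in FMC_new, and macrophage-like cells had low shares. In FMC_new, B cell-like cells were called at 9.18% (28 of 305), type 1 dendritic-like cells, which present antigen to CD8 T cells, at 7.41% (39 of 526) and type 2 dendritic-like cells, which present to CD4 T cells, at 6.35% (54 of 851). In C-ON the same classes were called in 3 of 49, 3 of 113 and 8 of 202 cells. Thinned to 2000 UMIs, the FMC_new shares fell to 4.76%, 3.47% and 4.33%, so their order against T cell-like cells depended on depth, and the intervals of these classes overlapped. Microglia-like cells, the resident macrophages of the nervous system, were called in 1 of 222 cells in C-ON and in 29 of 1416 (2.05%, 1.38 to 2.93) in FMC_new, an interval below that of T cell-like cells. Border macrophage-like cells, found at vessels and meninges, were called in 0 of 146 and 4 of 268, and macrophage-like cells with high MHC class II in 1 of 67 and 4 of 469. NK cell-like cells were called in 2 of 119 and 3 of 282, plasma cell-like cells in 6 of 426 and 22 of 1078, and ILC2-like cells in 0 of 26 and 3 of 66. Plasmacytoid dendritic-like cells were called in 0 of 6 and 1 of 77, migratory dendritic-like cells in 3 of 25 and 0 of 69, and clusters that stayed unnamed in 4 of 618 and 54 of 1693. Of the other non-immune classes, astrocyte-like cells were called in 0 of 19 and 1 of 239 and neuron-like cells in 0 of 36 and 0 of 42.

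**Figure D1:**
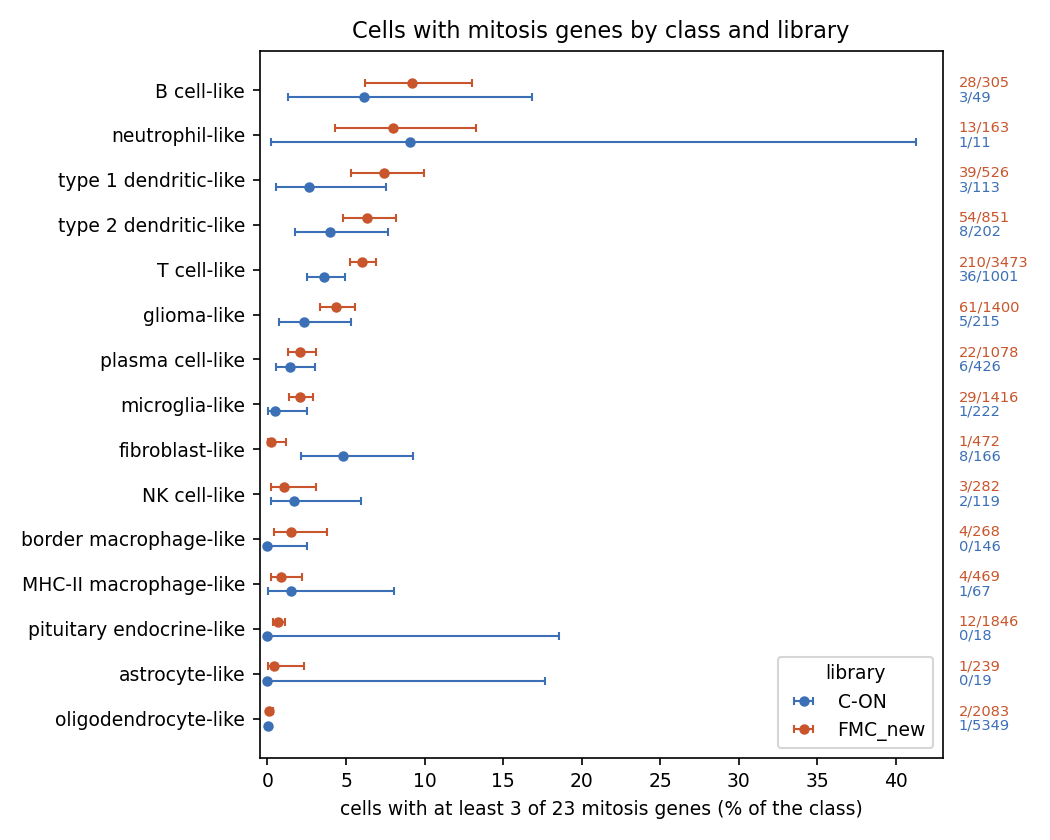
Share of cells with at least 3 of 23 mitosis genes (x axis, percent of the class) in 15 classes, for C-ON (blue) and FMC_new (orange). Points are shares, bars are exact 95% binomial intervals, and the counts stand at the right. Oligodendrocyte-like cells lie at 0.0187% and 0.096%, and glioma-like cells lie at 2.33% and 4.36%, left of T cell-like cells at 3.6% and 6.05%.

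Most cells with mitosis genes were leukocytes in each library. Leukocytes made up 64 of 82 called cells in C-ON (78.0%, 67.5 to 86.4) and 75.8% in FMC_new. Leukocytes were also a larger part of the kept cells in FMC_new than in C-ON, as given above. T cell-like cells alone were 43.9% of the called cells of C-ON (33.0 to 55.3) and 11.3% of its kept cells. In FMC_new they were 210 of the 541 called cells, and 3263 more of the 16818 kept cells were T cell-like and not called. Glioma-like cells were 6.10% of the called cells in C-ON (2.01 to 13.7) and 11.3% in FMC_new (61 of 541), against 2.43% and 8.32% of the kept cells. These are parts of the cells captured after dissociation, myelin removal and a live sort, and the effect of those steps was not tested.

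Markers of other cell types moved with some of these calls. A UMI of Ptprc, the pan-leukocyte gene CD45, was present in 22 of the 61 called glioma-like cells of FMC_new (36.1%) and in 15.5% of those not called, and in 0 of 5 called against 7.62% of those not called in C-ON. At least 3 markers of T cells were present in 8 of those 61 cells, of type 1 dendritic cells in 10, and of microglia in 11, against 79, 33 and 83 of the 1339 not called. In B cell-like cells of FMC_new, at least 3 T cell markers were present in 8 of 28 called cells and in 19 of 277 not called. In C-ON these counts were 0 of 3 and 3 of 46. Without cells that had a Ptprc UMI, the glioma-like share was 5 of 199 (2.51%) in C-ON and 39 of 1171 (3.33%, 2.38 to 4.52) in FMC_new. By doublet score, 18.2% of called and 21.1% of other glioma-like cells were among the top 8% of scores. These scores come from Scrublet, a doublet caller that called 1 barcode in all and had not worked here. Called cells were also deeper, with a median of 6833 against 5313 UMIs in glioma-like and 7337 against 3057.5 in T cell-like cells. The part of mixed droplets and free RNA in the calls was not tested beyond these values.

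Some classes with few called cells differed from the rest in what those cells carried. Fibroblast-like cells were called in 8 of 166 cells of C-ON and in 1 of 472 of FMC_new, with intervals that did not overlap, and 7 of these 8 sat at exactly 3 mitosis genes with 0 carrying 6 S-phase genes. Those 8 cells had a median of 1557 UMIs against 3562.5 in the fibroblast-like cells not called, and 8 of 8 had at least 3 oligodendrocyte markers, against 118 of 158. Of the collagen genes that mark fibroblasts, Col1a2 had a UMI in 0 of the 8 cells and in 56.0% of the class, and Col1a1 in 12.5% and 48.2%, while Dcn was at 87.5% and 58.4%. Neutrophil-like cells were called in 1 of 11 cells of C-ON and 13 of 163 of FMC_new, and 10 of those 14 had at least 8 mitosis genes. The called cell of C-ON had no UMI of any of the 7 markers of the class, so its name rests on its cluster alone. In FMC_new, Retnlg, a gene of mature neutrophils, had a UMI in 69.9% of the class and in 0 of its called cells, and Mmp8, a granule protease, in 57.7% and 15.4%, while S100a8, an abundant neutrophil calcium-binding protein, was at 82.2% and 84.6%. Pituitary endocrine-like cells were called in 0 of 18 and 12 of 1846 cells, with a median of 3.5 mitosis genes. Those 12 cells had a median of 2530 UMIs, against 6377 in the cells of that class and library not called. A Ptprc UMI was present in 50% of them against 15.9%, and at least 3 T cell markers in 4 of 12 against 88 of 1834.

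The number of mitosis genes per cell was spread widely among called cells of the proliferating classes. Of the 66 called glioma-like cells, 30 (45.5%) had at least 8 genes, the median was 7 and the highest 23. Of the 246 called T cell-like cells, 147 (59.8%) had at least 8, with a median of 11 and a highest value of 23. In oligodendrocyte-like cells no cell had more than 5. Called cells held 88.9% and 90% of all mitosis-gene UMIs of the glioma-like class in C-ON and FMC_new, and 88.2% and 89.2% of those of the T cell-like class. The summed level of these genes in a class therefore came from few cells.

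**Figure D2:**
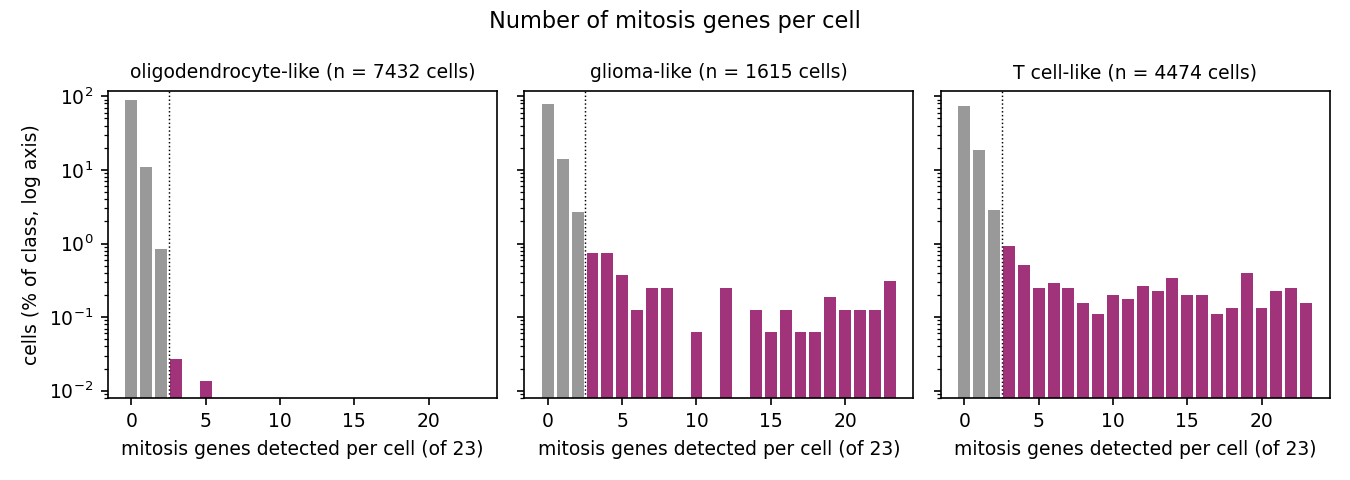
Number of the 23 mitosis genes with a UMI in each cell (x axis) and the percent of the class with that number (y axis, log scale), for oligodendrocyte-like, glioma-like and T cell-like cells of both libraries together. Purple bars right of the dotted line are called cells, which reach 23 genes in glioma-like and T cell-like cells and 5 in oligodendrocyte-like cells.

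S-phase genes without mitosis genes gave another reading. Cells with at least 6 of the 18 S-phase genes but fewer than 3 mitosis genes numbered 9 of 215 glioma-like cells in C-ON (4.19%, 1.93 to 7.80) and 34 of 1400 in FMC_new (2.43%, 1.69 to 3.38). T cell-like cells had 12 of 1001 (1.20%, 0.621 to 2.09) and 31 of 3473 (0.893%, 0.607 to 1.27). In FMC_new the glioma-like interval lay wholly above that of T cell-like cells, the opposite order from the mitosis call. Oligodendrocyte-like cells had 3 of 5349 and 0 of 2083, the latter allowing up to 0.144%. For each such cell there were 5 called for 9 in C-ON and 61 for 34 in FMC_new among glioma-like cells, against 36 for 12 and 210 for 31 among T cell-like cells. T cell-like cells were shallower, and at 2000 UMIs with a threshold of 3 S-phase genes the shares were 3.98% and 3.90% in glioma-like and 4.05% and 3.61% in T cell-like cells, so the gap between the classes was not seen at matched depth and that threshold. Without thinning, 3 S-phase genes were present in 8.60% and 9.89% of oligodendrocyte-like cells, and that threshold reads background. Among called cells, at least 6 S-phase genes were present in 4 of 5 and 23 of 61 (37.7%) glioma-like cells and in 28 of 36 (77.8%) and 140 of 210 (66.7%) T cell-like cells.

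Summed over all 42 genes, the level per class was given as CPM, the UMIs of the genes scaled to 1000000 UMIs of the class in a library. It was 672 in C-ON and 853 in FMC_new in glioma-like cells, 1249 and 1469.7 in T cell-like cells and 1045 and 829 in oligodendrocyte-like cells. The oligodendrocyte-like sum came mostly from Stmn1, at 873 and 629 CPM, against 186 and 101 in glioma-like and 200 and 91.0 in T cell-like cells. Without Stmn1 the sums were 486 and 752 in glioma-like, 1049 and 1379 in T cell-like and 172 and 199.8 in oligodendrocyte-like cells. In these libraries the level of Stmn1 across the 3 classes did not follow that of the other 41 genes. For the mitosis genes alone the order was the same, with 152 and 399 CPM in glioma-like, 442 and 716 in T cell-like and 13.8 and 21.9 in oligodendrocyte-like cells. For the S-phase genes the levels were 334 and 352, 607 and 662, and 158 and 178. Neutrophil-like cells were at 889 CPM in FMC_new, of which 94.2% came from the called cells, and at 775 in C-ON, of which 91.3% came from the 1 called cell that had no marker of the class. B cell-like cells had 500.2 and 610 CPM, type 2 dendritic-like cells 172 and 400.1, type 1 dendritic-like cells 139 and 304, and microglia-like cells 43.7 and 145. Per cell, the median sum of the 42 genes was 2 and 1 UMIs in glioma-like, 1 and 1 in T cell-like and 8 and 6 in oligodendrocyte-like cells, while the highest cell reached 125 and 328, 208 and 293, and 43 and 30.

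Between glioma-like and oligodendrocyte-like cells, 29 of the 42 genes were at least 2-fold higher in glioma-like cells in each library and 1, Stmn1, was lower. All genes tested set a background of 28.3% higher and 7.86% lower. A gene needed 10 UMIs over both classes in each library, which 37 of the 42 passed, and Ccnb1, Hmmr, Aurkb, Plk1 and Bub1 did not. The median log2 difference of the members that passed was 3.09 in C-ON and 3.37 in FMC_new, against 0.46 and 0.41 for all genes tested. In the calls per cell, 66 of 1615 glioma-like and 3 of 7432 oligodendrocyte-like cells had mitosis genes.

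The genes that execute mitosis were near 0 in oligodendrocyte-like cells. Mki67 was at 11.2 CPM (exact Poisson 95% interval 6.14 to 18.8) in C-ON and 28.6 (24.9 to 32.6) in FMC_new in glioma-like cells, at 69.2 and 118 in T cell-like cells and at 0.131 and 0.882 in oligodendrocyte-like cells. The 3 classes kept this order in each library, with intervals that did not overlap. Top2a, the topoisomerase that untangles replicated DNA, was at 19.2 and 41.3, 84.0 and 107, and 0.152 and 1.65 in the same order. Cenpf, a kinetochore protein, was at 9.62 and 33.5, 13.8 and 29.4, and 0.348 and 0.824. For Cenpf, unlike Mki67 and Top2a, the intervals of glioma-like and T cell-like cells overlapped in each library. Ube2c, which loads ubiquitin for the anaphase-promoting complex, was at 18.4 and 41.1, 34.8 and 68.0, and 0.109 and 1.82. Among the cyclins, Ccna2 was at 4.01 and 12.6 CPM in glioma-like and 16.2 and 25.7 in T cell-like cells, and Ccnb2 at 3.21 and 12.2 against 12.8 and 24.3. Ccnb1, the cyclin partner of Cdk1, was at 2.41 and 15.4 in glioma-like against 6.25 and 12.9 in T cell-like cells, so that its order differed between the libraries, from 3 UMIs in C-ON. The remaining mitosis genes (Birc5, Nusap1, Cdca3, Knl1, Spc25, Cdk1, Hmmr, Plk1, Bub1 and Kif11) were between 0.802 (Plk1) and 9.62 CPM (Birc5 and Cdca3) in glioma-like cells of C-ON and between 2.83 (Bub1) and 26.1 (Birc5) in those of FMC_new. Counts in the glioma-like class of C-ON were small for every mitosis gene, between 0 (Aurkb, a kinase of the chromosome passenger complex) and 24 UMIs (Top2a). Cdca8, Tpx2, Aurka, Cdc20 and Cenpe had the highest counts of the list in oligodendrocyte-like cells of C-ON, with 150, 103, 71, 90 and 78 UMIs over 5349 cells. For Cdc20 and Cenpe this left glioma-like cells short of the 2-fold rule in at least 1 library, at 3.21 against 1.96 CPM for Cdc20 and 1.60 against 1.70 for Cenpe, a kinetochore motor, in C-ON.

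S-phase genes split by their level in oligodendrocyte-like cells. Rrm1, the large subunit of ribonucleotide reductase, was at 43.3 and 36.6 CPM in glioma-like, 38.0 and 50.6 in T cell-like and 29.6 and 30.9 in oligodendrocyte-like cells, while Rrm2, the small subunit made in S phase, was at 5.61 and 15.2, 37.0 and 38.2, and 0.348 and 1.00. Pcna, the polymerase clamp, also differed by less than 2-fold between these classes, at 51.3 and 67.2, 92.0 and 83.6, and 70.4 and 75.1. Pcna, Rrm1, Mcm3, Mcm4 and Gins2 were the 5 S-phase genes not called higher in glioma-like than in oligodendrocyte-like cells. The helicase subunits themselves differed, as Mcm4 was at 43.3 and 38.6 CPM in glioma-like against 19 and 26.7 in oligodendrocyte-like cells and Mcm6 at 32.1 and 22.7 against 1.39 and 0.882. Pclaf, a partner of the clamp, was at 5.61 and 24.5 in glioma-like, 62.8 and 67.3 in T cell-like and 0.305 and 2.18 in oligodendrocyte-like cells. Uhrf1, which maintains DNA methylation behind the fork, was at 13.6 and 9.78, 12.0 and 15.3, and 0.087 and 0.118. Gins2, part of the helicase complex, was at 8.02 and 11.2 in glioma-like and 8.0 and 9.70 in T cell-like cells, with intervals that overlapped in each library, while those of Pclaf, Rrm2 and Mcm6 did not in either. The remaining S-phase genes (Mcm2, Mcm3, Mcm5, Mcm7, Tyms, Tk1, Ccne1, Ccne2, Cdc6 and Hells) were between 0.802 (Cdc6) and 40.1 CPM (Mcm7) in glioma-like cells of C-ON and between 2.19 (Ccne1) and 36.7 (Mcm7) in those of FMC_new. All 42 members are protein-coding genes on 16 chromosomes, and 8 overlap another gene on the same strand, such as Mcm7 with microRNA genes, and 15 on the other strand, so reads of these genes may be shared.

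Against T cell-like cells, 0 of the 42 genes were at least 2-fold higher in glioma-like cells in each library and 13 were lower, beside a background of 27.7% higher and 13.7% lower. The 13 were Mki67, Top2a, Ccna2, Knl1, Aurkb and Kif11 of the mitosis genes and Pclaf, Rrm2, Mcm5, Mcm6, Tyms, Cdc6 and Hells of the S-phase genes. The median log2 difference of the members was -1.24 in C-ON and -0.84 in FMC_new, against 0.38 and 0.31 for all genes. T cell-like against oligodendrocyte-like cells gave 37 of 42 higher and 1 lower, again Stmn1, beside 24.4% and 24.3% of all genes. The 3 comparisons share classes, so their counts are not independent.

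**Figure D3:**
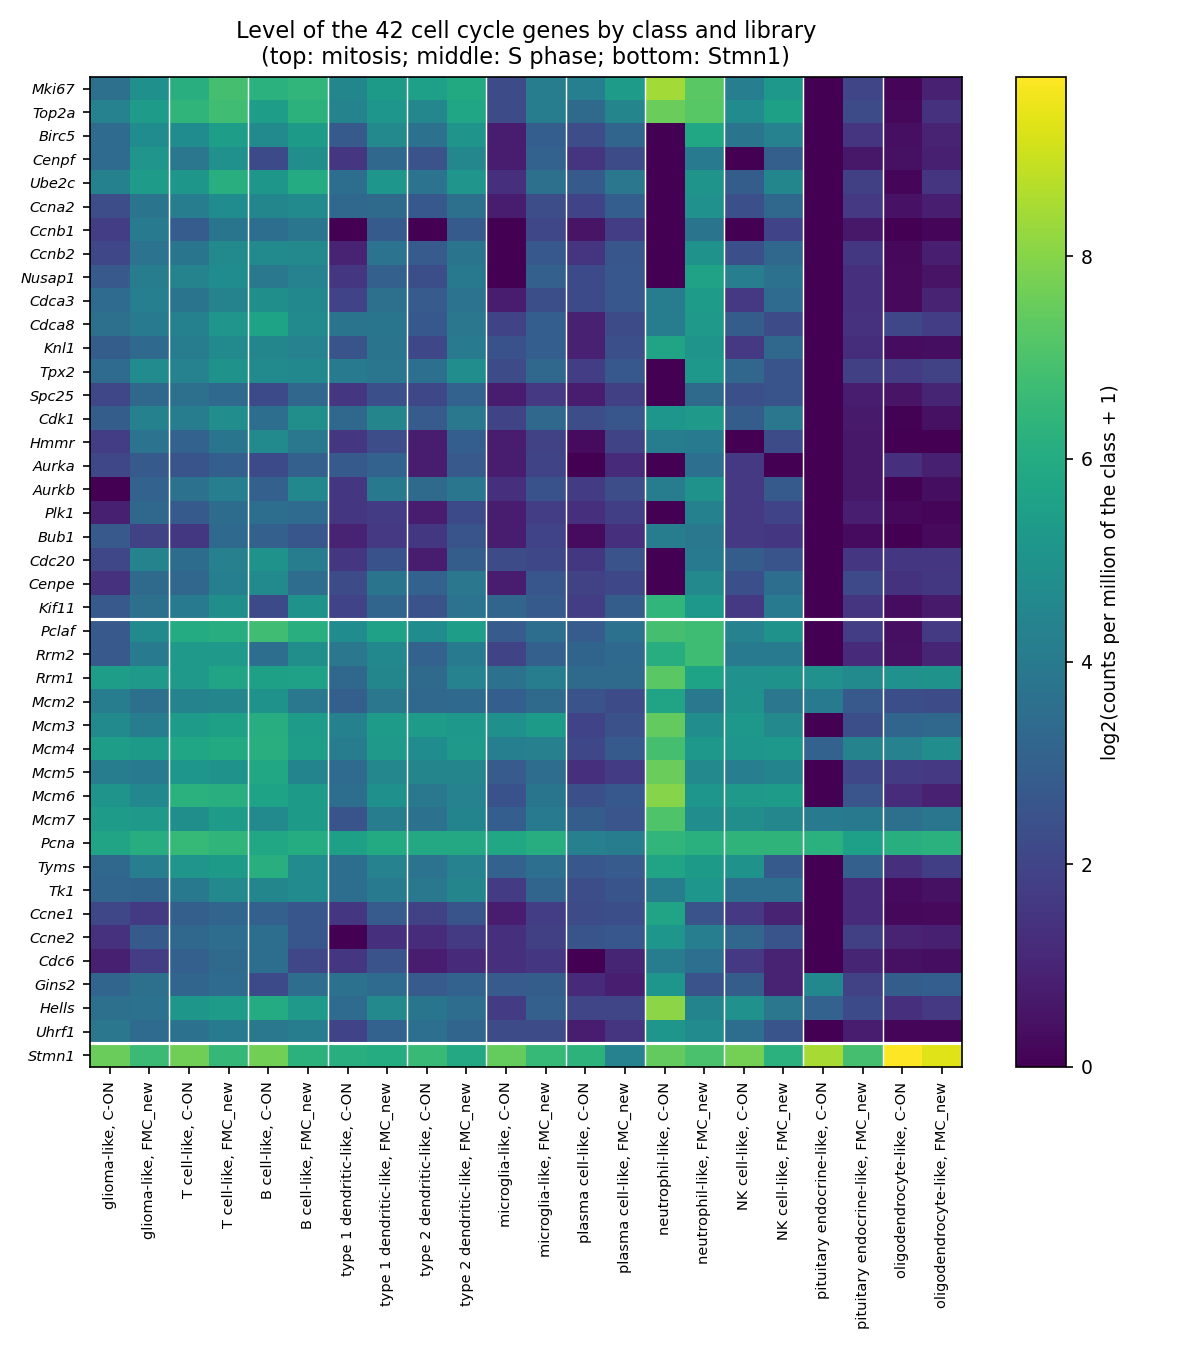
Level of each of the 42 genes (rows) in the classes named below the columns, each in C-ON and FMC_new, as log2(CPM + 1). Mitosis genes are dark in oligodendrocyte-like and pituitary endocrine-like cells, and Stmn1 is brightest in oligodendrocyte-like cells at 873 and 629 CPM. Pcna and Rrm1 differ by less than 2-fold among glioma-like, T cell-like and oligodendrocyte-like cells. The C-ON column of neutrophil-like cells rests on 11 cells, of which the 1 called cell had none of the 7 neutrophil markers.

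A list of 33 cell cycle control genes, none of them a member, held genes that differed between the classes in opposite directions. Ccnd1 was at 823 CPM (773 to 875) in C-ON and 1056 in FMC_new in glioma-like cells, at 2.25 and 9.62 in T cell-like and at 5.72 and 10.6 in oligodendrocyte-like cells, and it had a UMI in 73.0% and 74.4% of glioma-like cells. Ccnd2 showed the other order, at 41.7 and 74.4 in glioma-like against 264 and 265 in T cell-like cells, as did Ccnd3, at 127 and 114 against 411 and 441. Their kinases also differed in opposite directions, with Cdk4 at 174 and 214 in glioma-like against 118 and 118 in T cell-like cells and Cdk6 at 4.01 and 9.66 against 134 and 150. Of the inhibitors, Cdkn1a (p21) was at 148 and 145 in glioma-like and 59.5 and 46.5 in T cell-like cells. Cdkn2c (p18) was at 36.9 and 56.3 in glioma-like against 4.94 and 7.94 in oligodendrocyte-like cells. By the 2-fold rule in each library, Cdkn1a was not called against oligodendrocyte-like cells, nor Cdkn2c against T cell-like cells. Of the whole list, 19 of the 30 genes that passed the filter were higher and 0 lower in glioma-like than in oligodendrocyte-like cells. All genes tested gave 28.3% higher and 7.86% lower there. Against T cell-like cells, 3 of 33 (Ccnd1, Cdkn1a and Cdkn1c) were higher and 12 lower, beside 27.7% and 13.7% of all genes tested. Ccnd1 was not limited to called cells, and its level is a feature of the class as clustered.

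Called glioma-like cells and called T cell-like cells could be compared gene by gene. Mitosis genes chose these cells, so their levels describe the make-up of the calls. In FMC_new, where 61 and 210 cells were called, the ratio of CPM between them had a 95% interval above 1 for 12 of the 23 mitosis genes and below 1 for 1, against 0 above and 11 below among the 18 S-phase genes. Of all 11414 genes with at least 10 UMIs in these cells, 27.9% lay above and 18.6% below, with a median ratio of 1.10. Of the 33 control genes, 7 lay above and 13 below, with a median ratio of 0.726 beside 0.652 for the S-phase and 1.33 for the mitosis genes. Ccnb1 was at 261 CPM in called glioma-like and 86.3 in called T cell-like cells, a ratio of 3.03 (2.35 to 3.90). Spc25, a kinetochore protein, had a ratio of 2.46, Cenpf of 2.43 (2.05 to 2.86) and Cdc20 of 2.40 (1.92 to 3.0). These 4 genes had the highest ratios of the 42. Mki67 was the mitosis gene that stood on the T cell-like side, at 453 against 845 CPM, a ratio of 0.536 (0.460 to 0.622), while Top2a was at 0.953 (0.833 to 1.09). Cdc6 had a ratio of 0.266 (0.112 to 0.543), Mcm3 of 0.400 (0.269 to 0.578) and Hells of 0.488 (0.330 to 0.699). Of the S-phase genes, Gins2 alone had a ratio above 1, at 1.42 (0.874 to 2.24). In C-ON, with 5 called glioma-like cells, 1 mitosis gene lay above and 2 below 1, and 0 S-phase genes above and 5 below, beside 11.8% above and 9.38% below of the 6154 genes with at least 10 UMIs there. Intervals below 1 for S-phase genes were thus seen in both libraries, and the many intervals above 1 for mitosis genes in FMC_new. Of the control genes, Ccnd1 had a ratio of 163 (99.4 to 286), Cdkn1a of 3.6 (2.84 to 4.57), Cdkn2d (p19) of 3.17 (2.47 to 4.06) and Cdk6 of 0.0761 (0.0277 to 0.168). Counts of UMIs within a cell are not independent, so these intervals are narrower than the spread between cells would give.

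**Figure D4:**
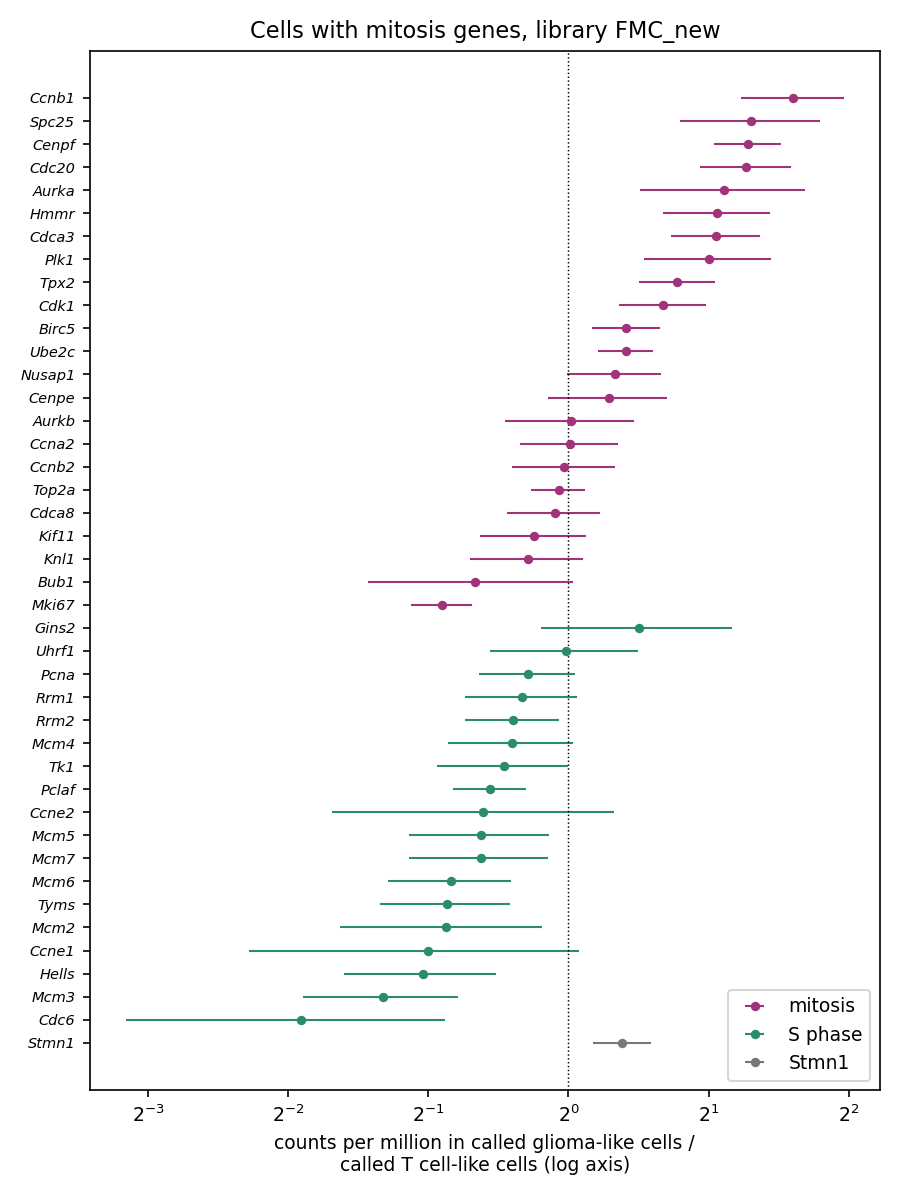
Ratio of CPM in called glioma-like cells to called T cell-like cells in FMC_new (x axis, log scale) for each of the 42 genes, with 95% intervals from the counts. The dotted line marks a ratio of 1, and Ccnb1 at 3.03 and Cdc6 at 0.266 are the ends of the range.

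Mki67 on its own gave another picture of which cells divide. Of 1120 cells with a Mki67 UMI, 398 (35.5%) had at least 3 of the other 22 mitosis genes. This part was 37 of 62 (59.7%) in glioma-like, 179 of 381 (47.0%) in T cell-like, 41 of 168 (24.4%) in type 2 dendritic-like, 22 of 157 (14%) in plasma cell-like and 0 of 16 in oligodendrocyte-like cells. Type 2 dendritic-like cells had a Mki67 UMI in 17.3% and 15.6% of cells and plasma cell-like cells in 8.45% and 11.2%, so by this gene they stood above or beside T cell-like cells at 7.49% and 8.81%. Plasma cell-like cells, whose mature form secretes antibody and no longer divides, were called by 3 mitosis genes at 1.41% and 2.04%. In the other direction, Mki67 was missing from many cells with other mitosis genes, as 57.8% of such glioma-like and 80.6% of such T cell-like cells had a Mki67 UMI. The median depth of plasma cell-like cells was the highest of the immune classes, at 10730 UMIs in C-ON and 11897 in FMC_new. Among cells not called, type 2 dendritic-like cells had a median of 6905 and 7394 UMIs, against 3158 and 3041 in T cell-like cells. The shares with a Mki67 UMI were not read at matched depth.

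Within the T cell-like class, subsets were set by UMIs of few genes. These gates were read on all UMIs of a cell, also where the call was thinned to 2000 UMIs, so they depend on depth. A CD8 cell with a Foxp3 UMI was in both the CD8 and the regulatory group. CD8 cells were called in 26 of 508 cells in C-ON (5.12%) and 96 of 1634 in FMC_new (5.88%). Among them, cells with Pdcd1, the gene of the PD-1 receptor, were called at 6.20% and 6.76% and those without at 3.85% and 4.56%, with overlapping intervals, and at 2000 UMIs the shares were 4.76% and 4.64% against 3.70% and 3.25%. Regulatory cells, set by Foxp3, were called in 1 of 74 cells in C-ON (1.35%, 0.03 to 7.30) and in 38 of 377 in FMC_new (10.1%, 7.23 to 13.6). In FMC_new this interval lay above that of all CD8 cells, and at 2000 UMIs 30 of 300 regulatory cells (10.0%, 6.85 to 14) stood against 59 of 1437 CD8 cells (4.11%, 3.14 to 5.26), but C-ON, with 74 such cells, did not show it. Conventional CD4 cells were called in 7 of 165 (4.24%) and 32 of 620 (5.16%), and gamma-delta cells in 0 of 11 and 0 of 15.

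Within the glioma-like class, cells with a UMI of Gpr17, a receptor of progenitors that are committed to become oligodendrocytes, were called less often in FMC_new. There, 10 of 572 cells with Gpr17 (1.75%, 0.841 to 3.19) and 51 of 828 without (6.16%, 4.62 to 8.02) were called. In C-ON the counts were 2 of 103 (1.94%) and 3 of 112 (2.68%), with intervals that overlapped almost fully. With both the call and the gate read at 2000 UMIs, 1 of 310 (0.323%) and 38 of 844 (4.50%, 3.21 to 6.13) were called in FMC_new, and 1 of 52 (1.92%) and 2 of 149 (1.34%) in C-ON, where the order was turned and the intervals overlapped. By S-phase genes the intervals overlapped in both libraries, as at least 6 S-phase genes without a mitosis call were present in 4.85% of cells with and 3.57% without Gpr17 in C-ON and in 2.62% and 2.29% in FMC_new. Cells with Gpr17 were the deeper ones, with a median of 6136.5 against 4429 UMIs in FMC_new. Of all called glioma-like cells, 18.2% had a Gpr17 UMI, against 41.8% of the class. Other markers of the class went both ways. Pdgfra was at 89.4% of called cells and 77.0% of the class, and Cspg5, Ptprz1 and Lhfpl3 were slightly higher in called cells. Cspg4 was at 43.9% and 58.6%, Neu4 at 54.5% and 67.3% and Bcan at 54.5% and 69.8%. C1ql1, Tnr and Vcan were also lower in called cells. By cluster, the larger of the glioma-like clusters was called in 5 of 184 and 33 of 888 cells (3.72%) and the smaller in 0 of 31 and 28 of 512 (5.47%). The smaller cluster came almost wholly from FMC_new and was shallow there, with a median of 2222.5 UMIs against 6265 in the larger. At 2000 UMIs, 15 of 288 cells of the smaller (5.21%) and 24 of 866 of the larger (2.77%) were called in FMC_new. The smaller cluster thus held 28 of the 61 called glioma-like cells of that library.

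**Figure D5:**
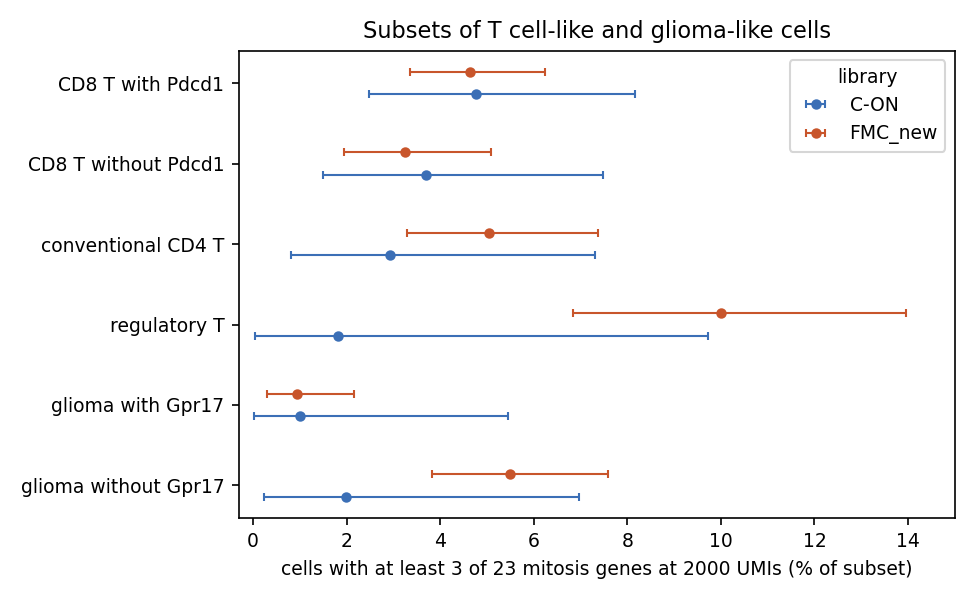
Share of cells with at least 3 of 23 mitosis genes after thinning to 2000 UMIs (x axis, percent of the subset) in T cell-like and glioma-like subsets of C-ON (blue) and FMC_new (orange), with exact 95% intervals. The subsets were set on all UMIs of a cell, before thinning. In FMC_new, regulatory cells lie at 10.0% and glioma-like cells without Gpr17 at 5.49%, against 0.935% with Gpr17. With the Gpr17 gate also read at 2000 UMIs, not drawn here, the latter shares were 4.50% and 0.323%.

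Genes outside every cell cycle list also differed between called and other cells of a class. In glioma-like cells, 152 of 8907 genes tested were at least 2-fold higher in called cells in each library, of which 86 were outside the lists, and in T cell-like cells 435 of 10273, of which 201 were outside. The strongest in glioma-like cells was Selenoh, a nuclear selenoprotein, at 587 against 75 CPM, a ratio of 7.83 over both libraries. Zfp367, a zinc finger factor, followed at 7.15, Tubb6, a tubulin, at 6.64, Rad51b, a recombination repair gene, at 6.37 and Dck, the kinase that salvages deoxycytidine, at 5.55. Gm10282, Hirip3, Gm42047, Dynlt1a and Cmc2 completed the 10, at 6.35, 5.82, 5.17, 4.79 and 4.72. In C-ON the called side of these 10 ratios rests on 5 cells, with 2 (Dck and Dynlt1a) to 15 UMIs (Selenoh) per gene. In T cell-like cells the strongest was Kntc1, a kinetochore gene, with 20 UMIs in called and 1 in other cells of C-ON and 68 and 5 in FMC_new, a ratio of 112 over both libraries. It was followed by Gm20628 at 43.7, Fignl1, a recombination repair gene, at 19.6 and Gm4316 at 17.5. Cenps, Gm10282, Rad51b, Atad5, Zgrf1 and Kpna2 followed, from 13.1 to 8.87. Rad51b and Gm10282 were among the 10 in each class. Gm20628 lies antisense to histone genes, and Gm42047 and Gm4316 overlap other gene models, so reads of these genes may be shared with their neighbours.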

How the data were processed

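The optic nerve libraries were made with a 5′ droplet chemistry after dissociation, removal of debris and myelin and sorting of live cells. The authors deposited raw UMI counts per gene and barcode, made with Cell Ranger 7.2.0 on the mm10 reference according to the submitters' processing notes; whether intronic reads or strand were used is not given in the sources used here.

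Barcodes with 500 to 5000 genes, at most 20000 UMIs and at most 5% mitochondrial counts were kept. Libraries were integrated in Seurat 5.3.0 (R 4.3.3) with 30 components and clustered at resolution 0.8 after 387 cell cycle genes were taken out of the variable features, which left 1940. A cluster was named where at least 3 markers of a class had a UMI in 20% of its cells and 2 times the mean level over clusters. It stayed unnamed where its 10 leading genes held more markers of another class or, by a part of the rule added after the leading genes were seen, none of its own. Scrublet (scanpy 1.11.5) called 1 barcode, so it had not worked and no doublet was removed.

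Counts, thinning and intervals were computed in Python 3.11.15 with scipy 1.17.1. Shares have exact Clopper-Pearson and levels exact Poisson 95% intervals, and a count of 0 allows up to 3 counts. Ratios between classes used 0.5 added UMI and a limit of 10 UMIs per library, and the fold script was checked on simulated data. The genes named are all members, the control genes named by function, and the 10 genes outside the lists with the highest ratio in called cells among those with 20 UMIs in each library and 2-fold in each. The members and lists were chosen with earlier results of these data known. V(D)J data were not used here.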

Additional observations from a re-analysis of the deposited data

Results flagged for a closer look

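Barcodes above the upper limits of 5000 genes or 20000 UMIs were used in no comparison, and 163 of these 1675 barcodes (9.73%, exact 95% interval 8.35 to 11.3) had at least 3 of the 23 mitosis genes, against 2.43% of the kept cells. The share was 6.04% in C-ON (38 of 629) and 12.0% in FMC_new (125 of 1046), each above the 0.928% and 3.22% of the kept cells of that library. Their median depth was 23808 UMIs, and 82.2% of the 163 had a UMI of Ptprc. The parts of depth and of droplets with more than 1 cell in this difference were not tested. Of 857 barcodes with 5 to 10% mitochondrial counts, 6 (0.700%) were called.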

How the results depend on the processing

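With 2 libraries of 1 group, no result had a test, and a share or level was held to have moved when it changed by at least the SD of the 2 libraries. Of 62 such values, 41 did not move and 21 did. The count of members was held to have moved beyond 1.5 times, which none of its 8 alternatives reached. The removal of Scrublet calls took out 1 barcode and is left out of these counts and changed no call of these results. With a call at 2 genes, the glioma-like share was 6.75% in place of 4.09%, the leukocyte part of called cells 71.9% in place of 76.1% and the share of all cells 4.72% in place of 2.43%. With a call by a Mki67 UMI, the glioma-like part was 5.54% in place of 10.6%, the leukocyte part 81.3% and the share of all cells 4.37%. The leukocyte part was 79.6% at 2000 UMIs and 3 genes, 78.3% at 2000 UMIs and 2 genes, 71.2% at 1000 UMIs and 2 genes, and 83.0% both at resolution 2 and with cell cycle genes kept in the clustering. With those genes kept, the summed level was 588 CPM in place of 828 in glioma-like and 2086 in place of 1417 in T cell-like cells, and with mitosis genes alone 365 and 651. Leaving out each library in turn gave 2.33% to 4.36% for the glioma-like share, 6.10% to 11.3% for the glioma-like part, 75.8% to 78.0% for the leukocyte part, 0.928% to 3.22% of all cells, 672 to 853 and 1249 to 1469.7 CPM for the sums and 31 to 36 for the 29 members higher in glioma-like than oligodendrocyte-like cells. That count was 23 to 36 over all alternatives. The alternatives that leave out glioma-like cells with a Ptprc UMI (leukocyte part 78.9%) or the top 8% of doublet scores were chosen after seeing the data. The cause of each move was not tested. No paired analysis was possible because the libraries form 1 group. The 5 called glioma-like cells of C-ON limit every statement on that class there.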
